A study of Mus musculus with 4 samples.

Results

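Krt75-positive inner bulge cells were chosen by their counts: a barcode was a member when its rounded Krt75 count was at least 1 and its Krt75, Fgf18 and Timp3 counts added up to at least 4. Of the 34150 barcodes kept in dorsal epidermis from 4 mice, 165 were members. Single-cell RNA was measured with BD Rhapsody in C57BL/6N females at postnatal day 19, in 2 control mice of genotype CerS4fl/flK14Cre- and 2 CerS4epi-/- mice of genotype CerS4fl/flK14Cre+. Mice of both groups thus carried the floxed CerS4 alleles, and Cre under the keratin-14 promoter, which is active in all basal keratinocytes and passes the deletion on to their progeny, was present only in the CerS4epi-/- mice. Cre was thus not limited to the inner bulge, and in CerS4epi-/- mice every keratinocyte class came from epidermis with Cre. CerS4 makes ceramides, the lipid backbone of the sphingolipids.

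The bulge is the part of the hair follicle that holds the stem cells, and in the resting follicle it has an outer and an inner layer. The inner layer consists of differentiated keratinocytes that carry keratin-6 and keratin-75, derive from the companion layer and lower outer root sheath of the previous growth phase, and anchor the club hair. These cells do not return to the stem cell pool, but they secrete Fgf18 and Bmp6, which are known to keep the outer bulge stem cells quiescent.

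The sequence just before the start of Krt75, the gene that chose the cells, is shown beside that of Serpinb11, the marker outside the rule that fell in CerS4epi-/- members. Each is the last 150 bases before the start that RefSeq gives, 5′ to 3′ on the strand of the gene, and was placed on GRCm39 by an exact match, Krt75 on the minus strand at chr15:101482340-101482489 and Serpinb11 on the plus strand at chr1:107289894-107290043. The Serpinb11 window lies inside the longer gene that GENCODE draws. The letters TATAAA and TGANTCA were searched on both strands. Capitals mark TGANTCA, whose first base lies 76 bases before the start of Serpinb11. Windows of the same length hold TGANTCA in 4.24% and TATAAA in 7.57% of 32851 promoters in the table.
Krt75: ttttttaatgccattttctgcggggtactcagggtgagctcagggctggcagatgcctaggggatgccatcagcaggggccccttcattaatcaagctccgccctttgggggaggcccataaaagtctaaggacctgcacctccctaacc
Serpinb11: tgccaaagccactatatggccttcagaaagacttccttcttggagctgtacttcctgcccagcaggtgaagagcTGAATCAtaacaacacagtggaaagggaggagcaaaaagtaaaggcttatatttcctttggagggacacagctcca
Neither set of letters is in the Krt75 window, and TATAAA is in neither window.

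The libraries were of similar depth, and stood apart by genotype in shared barcodes and in mitochondrial share. Kept barcodes numbered 8480 and 9086 in the control mice and 9017 and 7567 in the CerS4epi-/- mice, and members had a median of 3833 and 3751 counts per cell in controls and 3880 and 4141 in CerS4epi-/- mice. The summed counts of the members were 262597 and 193641 in controls and 189448 and 184375 in CerS4epi-/- mice. The 2 control mice shared 0 kept barcodes, and so did the 2 CerS4epi-/- mice, whereas each pair of unlike genotype shared 64 to 102. No member had a barcode that was a member in another mouse. Cells had been marked with sample tags for pooling, and the sources used here do not say which mice were pooled together. If mice of 1 genotype were, capture and genotype cannot be told apart. The median mitochondrial share of member counts was 8.56% and 8.76% in controls and 9.61% and 10.5% in CerS4epi-/- mice, higher in both of the latter. The limit of 20% on this share had removed 68 and 91 barcodes in controls and 363 and 316 in CerS4epi-/- mice. With a limit of 10%, 178 of 2471 genes tested were called between genotypes in members, against 179 of 3358 with the limit of 20%. The fit with the limit of 10% rested on 40 and 30 control members and 20 and 14 CerS4epi-/- members. These totals do not show whether the same genes were called.

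The deleted gene was low in the members of both groups. Cers4 (GRCm39 chr8:4542809-4581680, protein-coding) gave 10 and 5 counts in the control sums and 5 and 3 in the CerS4epi-/- sums, or 38.1 and 25.8 against 26.4 and 16.3 CPM, counts scaled to the same total for every sum. The groups overlapped. It was too low to be tested, and counts over the whole gene do not show whether the floxed exons were present.

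The members carried the markers of their name that the rule did not use. Serpinb11, a clade B serpin, or Wfdc3, a small secreted protein with a WAP domain, had a count in 55 of 55 and 47 of 47 control members and in 27 of 31 and 28 of 32 CerS4epi-/- members. Of all other kept cells, 1.15%, 0.830%, 1.11% and 1.02% had one in control 1, control 2, CerS4epi-/- 1 and CerS4epi-/- 2. Thus 8 of the 63 CerS4epi-/- members lacked both markers and none of the 102 control members did. Barcodes outside the members with at least 3 counts of Cd3 genes should lack Krt75. There were 102, 66, 136 and 140 of them in control 1, control 2, CerS4epi-/- 1 and CerS4epi-/- 2. Krt75 had a count in 0 of them, which allows shares of up to 2.94%, 4.55%, 2.21% and 2.14%. They had 1541 to 1914 counts at the median. A control 1 member with at least 5 counts of Cd3 genes, not in this set, had 1 count of Krt75. The 0 and its limits thus hold outside the members only. At the edge of the rule, 1 and 0 control and 3 and 2 CerS4epi-/- members had the lowest allowed sum of 4, and 1 and 1 control and 0 and 4 CerS4epi-/- barcodes with Krt75 had a sum of 3.

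As a description of the cells the rule picked, genes with at least 20 counts in members were ranked. Among these, 15 genes had the largest ratio of mean CPM in members to mean CPM in all other kept cells. They were Krt75, Lmod2, Tmod2, BC034090, BB123696, Adcy1, Wfdc3, Ptgds, Ttr, Foxc2, Cadm4, Aqp5, Dlx2, Fgf18 and Serpinb11. Krt75 stood first, at 1200 against 0.342 CPM. Tmod2 caps the pointed ends of actin filaments, and Lmod2 starts new ones. Tmod2 had 183 and 150 CPM in control members and 174 and 152 CPM in CerS4epi-/- members, against a mean of 0.227 CPM in other cells. Adcy1, an adenylyl cyclase, averaged 248 against 0.601 CPM. Ptgds, the enzyme that makes prostaglandin D2, averaged 477 against 1.198 CPM. The transcription factors Foxc2 and Dlx2 averaged 69.9 and 31.7 CPM in members and 0.196 and 0.115 CPM in other cells. Serpinb11 closed the list at 1058 against 4.21 CPM. Markers of other cell types were partly at 0 and partly present. Of the 11 listed inner root sheath genes, the keratins Krt25, Krt27, Krt72 and Krt73 were at 0 counts in all 4 sums, but the list summed to 206 and 253 CPM in control members and 343 and 266 CPM in CerS4epi-/- members, against 57.9 to 66.1 CPM in other cells. Most of that was Cux1, a transcription factor, with 156 and 186 CPM against 290 and 179 CPM. Of the Langerhans cell list Cd207 and Cd83 were at 0, whereas Epcam, an adhesion molecule that epithelial cells also make, had 583 and 646 CPM against 1172 and 786 CPM in members and 200 to 441 CPM in other cells. Of the fibroblast list Dcn, Lum and Pdgfra were at 0, whereas Sparc, a matrix protein, had 68.5 and 36.1 CPM against 311 and 266 CPM in members.

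The question for the 2 genotypes was first how many such cells each mouse had. Members made up 0.649% and 0.517% of kept barcodes in the control mice and 0.344% and 0.423% in the CerS4epi-/- mice. The 95% exact binomial intervals, which cover counting error only, were 0.489 to 0.843% and 0.380 to 0.687% for controls, and 0.234 to 0.488% and 0.289 to 0.596% for CerS4epi-/- mice. Both CerS4epi-/- mice were below both controls, with means of 0.583% ± 0.0928 and 0.383% ± 0.0559 (SD, n = 2), a ratio of 1.52. The two-sided exact permutation test gave p = 0.333, the smallest p that 2 against 2 mice can reach. With each cell thinned to 1200 UMIs, the shares were 0.402% and 0.397% against 0.178% and 0.239%, after 14 to 21 shallower cells per mouse had been left out. With only barcodes of at least 2000 counts the groups overlapped, at 0.640% and 0.400% against 0.368% and 0.485% (exact permutation p = 0.667). The median summed count of Krt75, Fgf18 and Timp3 per member was 20 and 17 in controls and 22 and 16 in CerS4epi-/- mice, so the groups overlapped in it. A cell with less of these RNAs falls below the threshold and is not counted, so fewer cells and less marker RNA per cell cannot be told apart by this share.

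**Figure D1:**
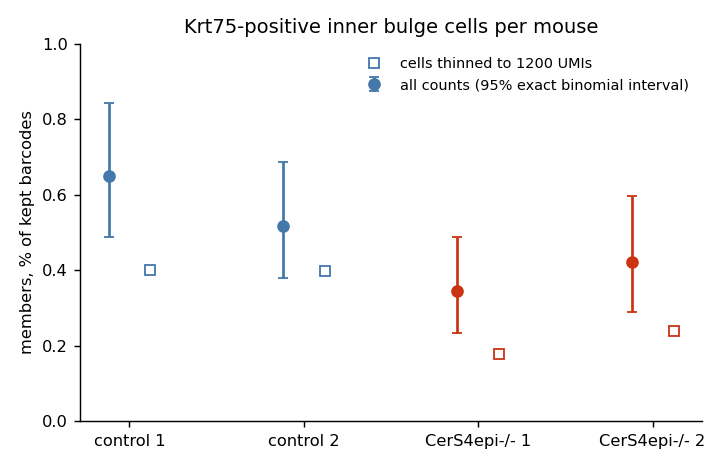
Krt75-positive inner bulge cells as a percent of kept barcodes (y axis) in each of the 4 mice (x axis). Circles are shares over all counts with 95% exact binomial intervals and open squares are shares after thinning each cell to 1200 UMIs; on both measures the 2 controls (0.649% and 0.517%, thinned 0.402% and 0.397%) lie above the 2 CerS4epi-/- mice (0.344% and 0.423%, thinned 0.178% and 0.239%).

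Set against Lhx2-positive bulge cells, members also took a smaller share in CerS4epi-/- mice. Lhx2-positive bulge cells were taken as barcodes with no Krt75, at least 1 count of Lhx2, the transcription factor that keeps bulge stem cells quiescent, and at least 3 counts of Lhx2, Postn, Cd34 and Nfatc1. There were 85 and 55 of them in controls and 134 and 102 in CerS4epi-/- mice. Of both classes together, members were 39.3% and 46.1% in controls and 18.8% and 23.9% in CerS4epi-/- mice, groups that did not overlap (exact permutation p = 0.333). The median depth of the Lhx2-positive cells was 3365 and 3643 counts in controls and 5478 and 5052 in CerS4epi-/- mice, and its part in the detection of Lhx2 was not tested. The class was not pure, and its make-up differed between the genotypes. It held Krt10, a keratin of differentiated epidermis, at 10980 and 13721 CPM in controls and 4186 and 2052 CPM in CerS4epi-/- mice. The upper follicle genes went both ways. Cst6 stood at 29498 and 27298 CPM against 21572 and 19986 CPM, and Klk10 at 4775 and 4287 CPM against 520 and 1793 CPM. Krt79 was higher in CerS4epi-/- mice, at 1714 and 1405 CPM against 2062 and 1783 CPM. So was Klk7, at 1405 and 1912 CPM against 2611 and 2849 CPM. The basal keratin Krt14 had 893 and 966 CPM in controls and 5804 and 7590 CPM in CerS4epi-/- mice, and the bulge keratin Krt15 had 6585 and 5092 CPM against 3129 and 1853 CPM.

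The 3 genes of the rule are given as a description. Krt75 (chr15:101471780-101482339, minus strand), the companion layer keratin, had 1344 and 1637 CPM in control members and 934 and 884 CPM in CerS4epi-/- members. Timp3 (chr10:86136236-86185371, plus strand), an inhibitor of matrix metalloproteinases, had 3686 and 4281 CPM against 3114 and 3016 CPM. Fgf18 (chr11:33067014-33097828, minus strand), the secreted growth factor that holds bulge stem cells at rest, had 259 and 351 CPM against 185 and 179 CPM. For each of the 3 genes both CerS4epi-/- sums were below both control sums, but the rule chose the cells by these same counts. Median counts per cell were 4 and 5 against 4 and 4 for Krt75, and 15 and 11 against 15 and 11 for Timp3. For Fgf18 they were 1 and 1 against 0 and 0.5.

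Of the 3 label markers that the rule did not use, Serpinb11 fell. Serpinb11 (chr1:107288928-107308208, plus strand) had 1439 and 1503 CPM in control members and 760 and 532 CPM in CerS4epi-/- members. Both CerS4epi-/- sums were well below both controls. The log2 fold change was -1.18 ± 0.20 (SE, n = 2 per group, edgeR quasi-likelihood test, adjusted p = 0.00131), and the call held in all 18 other fits. Those include a fit with random pseudoreplicates of cells, without the mouse as replicate. Another kept only members with Serpinb11 or Wfdc3 and so chose cells by the gene tested. Per cell, the median was 5 counts in each control mouse and 3 and 1 in the CerS4epi-/- mice, and 94.5% and 95.7% of control members against 80.6% and 68.8% of CerS4epi-/- members had a count. Wfdc3 (chr2:164573092-164587871, minus strand) had 883 and 821 CPM against 718 and 542 CPM. Its sums did not overlap, but the difference of -0.43 ± 0.20 on the log2 scale did not pass the edgeR test (adjusted p = 0.263). Bmp2 (chr2:133394079-133404816, plus strand), a ligand of the BMP pathway, had 1165 and 1152 CPM against 1251 and 624 CPM. Its 2 CerS4epi-/- sums lay on either side of the controls, and the difference was -0.30 ± 0.24 (edgeR, adjusted p = 0.620).

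**Figure D2:**
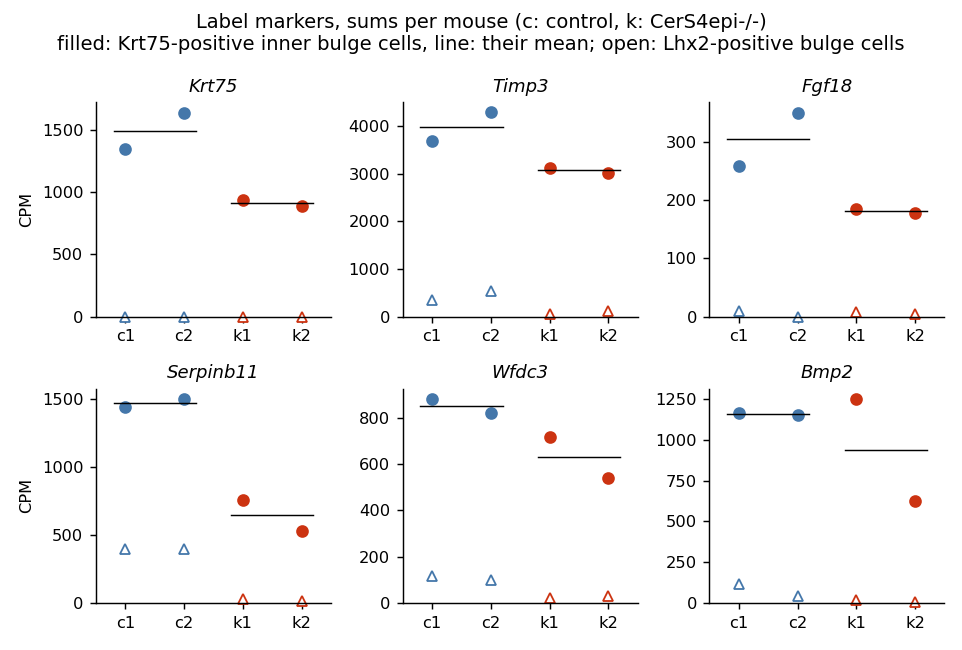
CPM (y axes, each from 0) of the 6 label markers in the sums of each mouse (x axes; c1 and c2 controls, k1 and k2 CerS4epi-/-). Filled circles are Krt75-positive inner bulge cells with their group mean as a line, and open triangles are Lhx2-positive bulge cells; Serpinb11 has 1439 and 1503 CPM against 760 and 532 CPM in members, and 395 and 400 CPM against 27.8 and 12.9 CPM in Lhx2-positive cells.

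Between genotypes, 94 genes rose and 85 fell in CerS4epi-/- members among the 3358 genes tested that the rule did not use (edgeR, adjusted p under 0.05 over all 3361 genes of the fit), which is 2.8% and 2.53% of them. DESeq2 called 42 of the risen and 27 of the fallen genes, and without the 10% deepest members edgeR called 44 risen and 18 fallen genes. In each of the 94 risen and 85 fallen genes both CerS4epi-/- sums were on the same side of both control sums. The calls were made on the same sums, so this adds no support to them, here or below. The share of all genes tested without overlap was not counted. The median log2 fold change of all genes tested was 0.01. The 4 sums rest on 31 to 55 cells each, with 2 mice per group. For its p-values edgeR estimates the spread between mice in part over all genes of the fit. The p-value of a gene thus does not measure the spread of that gene between its own mice alone.

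Many of the calls rested on a few cells that also carried genes of another class, and these cells were not spread evenly over the genotypes. In controls, 5 of 55 and 8 of 47 members had at least 20 counts of Krt1 and Krt10, the keratins of differentiated interfollicular epidermis, and in CerS4epi-/- mice 0 of 31 and 0 of 32 did, which allows shares of up to 9.68% and 9.38%. Those 13 cells had a median of 12784 and 7684 counts in the 2 control mice, against 3740 and 2412 in the other members of these mice, and held 24.3% of all control member counts. All 13 had Serpinb11 or Wfdc3. Among all other kept cells, 44.3% and 49.9% in controls and 37.3% and 32.6% in CerS4epi-/- mice were as rich in Krt1 and Krt10. At least 5 counts of Krt79, a keratin of the upper hair follicle, were found in 1 and 1 control members and in 4 and 3 CerS4epi-/- members. Those 7 CerS4epi-/- cells held 17.7% of the member counts of their group, with a median of 11207 and 5679 counts per cell, and 2 of the 7 had Serpinb11 or Wfdc3. Among other kept cells, 9.63% and 6.73% in controls and 18.5% and 19.3% in CerS4epi-/- mice were as rich in Krt79. One control member carried at least 5 counts of Cd3 genes. Exact permutation of the mice gave p = 0.333 for the Krt1 and Krt10 shares and for the Krt79 shares. No doublet caller was run, and whether these barcodes held more than 1 cell was not tested. Results are therefore given with and without all of these, called marker-rich cells, a choice made after the single cells had been seen.

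**Figure D3:**
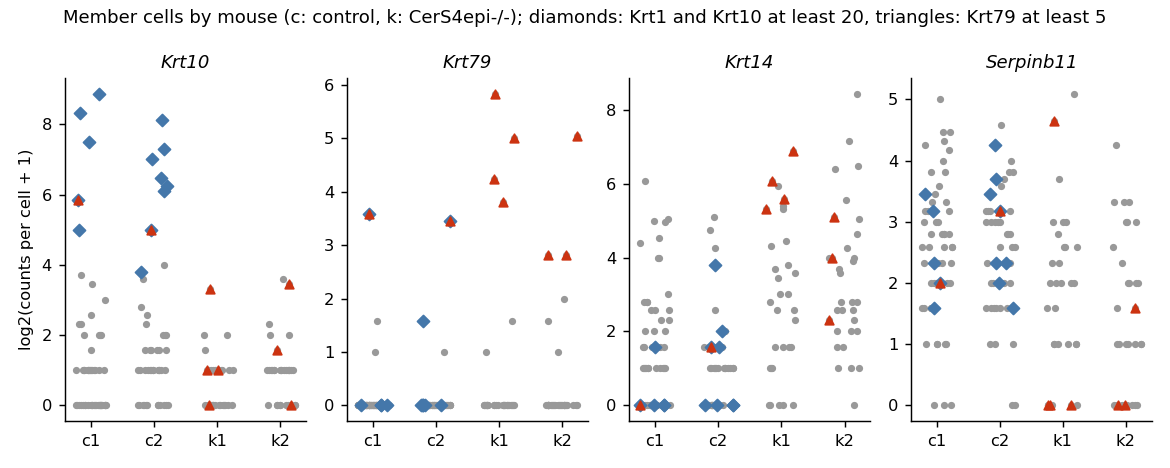
Counts of Krt10, Krt79, Krt14 and Serpinb11 in each member cell (y axes, log2 of counts plus 1) by mouse (x axes; c1 and c2 controls, k1 and k2 CerS4epi-/-). Diamonds are cells with at least 20 counts of Krt1 and Krt10 (5 and 8 in controls, 0 and 0 in CerS4epi-/- mice) and triangles are cells with at least 5 counts of Krt79 (1 and 1 in controls, 4 and 3 in CerS4epi-/- mice).

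Without the marker-rich cells, 26 genes rose and 24 fell among the 2715 tested, and 23 of the 94 risen and 19 of the 85 fallen genes were called again in the same direction. Of the rest, 20 risen and 33 fallen genes were then too low to be tested, and 51 and 33 were tested and no longer passed. The genes called with and without these cells are described first.

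The 19 genes that fell in both fits included Mt2, Txnip, Ly6a, Col17a1, Nr4a1, Atf3 and Hsp90aa1. Mt2, a metallothionein that binds zinc and copper, had 941 and 800 CPM in control members and 42.2 and 108 CPM in CerS4epi-/- members. Both CerS4epi-/- sums were far below both controls, at a log2 fold change of -3.52 ± 0.30 (edgeR, adjusted p = 2.6e-06), and -3.32 without the cells rich in other markers (adjusted p = 6.32e-06). Without CerS4epi-/- mouse 2 it was -4.37. Txnip, which binds and inhibits thioredoxin, had 1356 and 1611 CPM against 602 and 532 CPM, a log2 fold change of -1.38 ± 0.19 (edgeR, adjusted p = 0.000217). Ly6a, a surface protein also called Sca-1, fell from 99.0 and 176 CPM to 5.28 and 5.42 CPM, that is from 60 counts to 2, a ratio of 24.6 with a 95% counting interval of 6.51 to 208. Col17a1, the hemidesmosomal collagen that ties basal keratinocytes to the basement membrane and is needed to maintain bulge stem cells, had 141 and 186 CPM against 52.8 and 32.5 CPM (log2 fold change -1.89 ± 0.37, edgeR, adjusted p = 0.00514). The orphan nuclear receptor Nr4a1 had 149 and 305 CPM against 73.9 and 10.8 CPM, and the stress factor Atf3 251 and 160 CPM against 100 and 32.5 CPM. The chaperone Hsp90aa1 had 857 and 1038 CPM against 438 and 461 CPM. In all of these both CerS4epi-/- mice were below both controls.

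The 23 genes that rose in both fits included Krt14, Cstb, Ctsl, Sparc, Crabp2 and Gas1. Krt14 (chr11:100093988-100098490, minus strand), whose promoter drives the Cre used here, had 1192 and 666 CPM in control members and 2845 and 5142 CPM in CerS4epi-/- members. The log2 fold change was 2.10 ± 0.27 (edgeR, adjusted p = 0.000138), and 1.72 without the cells rich in other markers (adjusted p = 0.00356). Per cell the median of Krt14 was 1 count in each control mouse and 6 in each CerS4epi-/- mouse, while the 3 richest cells held 41.2% and 59.7% of its counts in controls and 44.9% and 60.3% in CerS4epi-/- mice. Krt5, its usual partner, had 7765 and 5577 CPM against 8129 and 9117 CPM, a log2 difference of 0.38 ± 0.16 that did not pass (edgeR, adjusted p = 0.217). Cstb, an inhibitor of cathepsins, had 522 and 289 CPM against 3774 and 3862 CPM (log2 fold change 3.22 ± 0.23, edgeR, adjusted p = 2.56e-07), and 65.0% of its CerS4epi-/- counts were in the 7 Krt79-rich cells. Without all marker-rich cells of both groups the log2 fold change was 1.96 (edgeR, adjusted p = 0.00252). Ctsl, a lysosomal cathepsin, had 26.7 and 15.5 CPM against 348 and 298 CPM, with 72.7% of its CerS4epi-/- counts in the Krt79-rich cells. Its log2 fold change was 3.86 over all members and 2.34 without all marker-rich cells of both groups.

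Sparc, a matrix glycoprotein better known from fibroblasts, had 68.5 and 36.1 CPM against 311 and 266 CPM (log2 fold change 2.40 ± 0.31, edgeR, adjusted p = 0.000123). Sparc was 1 of 7 fibroblast markers listed. Dcn, Lum and Pdgfra were at 0 counts in all 4 sums, and the list summed to 68.5 and 62.0 CPM in controls and 311 and 266 CPM in CerS4epi-/- members, in which Sparc was the whole of it. Only 0.926% of its CerS4epi-/- counts were in Krt79-rich cells. Crabp2, which carries retinoic acid to its nuclear receptor, had 171 and 119 CPM against 586 and 597 CPM (log2 fold change 2.00 ± 0.24, edgeR, adjusted p = 5.25e-05). Gas1, a membrane protein that serves as a co-receptor of hedgehog ligands, had 110 and 72.3 CPM against 401 and 320 CPM. All of these genes were higher in both CerS4epi-/- mice than in either control.

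In all 19 fits of the genotype difference, 12 risen and 3 fallen genes were called. This set was drawn up after the values had been seen. The fits include the random pseudoreplicates of cells, which are not mice, and the fit that chose members by Serpinb11 or Wfdc3. The fallen ones were Mt2, Txnip and Serpinb11. The risen ones were 2310046K23Rik, Ctsl, Pinlyp, Cstb, Phactr1, Sparc, Krt14, Crabp2, Gas1, Ly6d, Aldoa and Arpc1b. 2310046K23Rik, an uncharacterised gene, showed the highest fold of them, from 11.4 and 25.8 CPM to 565 and 298 CPM (log2 fold change 4.58 ± 0.44, edgeR, adjusted p = 5.31e-06, and 5.17 without control 2). Pinlyp, an inhibitor of phospholipase A2, had 60.9 and 25.8 CPM against 222 and 667 CPM. Aldoa, a glycolytic enzyme, and Arpc1b, a subunit of the Arp2/3 complex that branches actin, rose by 1.26 and 1.15 on the log2 scale.

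**Figure D4:**
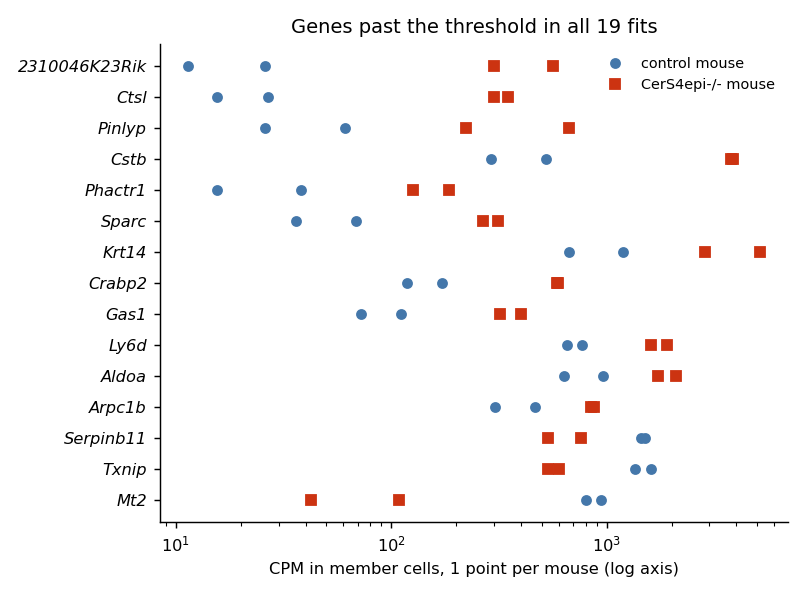
CPM in member cells (x axis, log scale) of the 15 genes (y axis) called in all 19 fits, with 1 circle per control mouse and 1 square per CerS4epi-/- mouse. Serpinb11, Txnip and Mt2, at the bottom, have both squares left of both circles, and the 12 other genes have both squares right of both circles.

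Genes of differentiated interfollicular epidermis fell, and for 6 of the 7 fallen genes 84.3% to 100% of the control counts lay in the 13 control cells rich in Krt1 and Krt10. Of 17 listed genes 12 were tested, 7 fell and 0 rose, with a median log2 fold change of -2.28. Krt10 had 4280 and 4710 CPM in control members and 148 and 266 CPM in CerS4epi-/- members (log2 fold change -4.43 ± 0.24, edgeR, adjusted p = 1.17e-08), and 92.9% of the control counts were in those 13 cells. The sum of Krt1 and Krt10 chose these cells, so leaving them out lowers both genes in controls by construction. Without them and the other marker-rich cells the log2 fold change of Krt10 was -1.25 (edgeR, adjusted p = 0.0531). Krtdap, a secreted protein of suprabasal keratinocytes, had 3572 and 4018 CPM against 169 and 385 CPM, and -0.73 without those cells (edgeR, adjusted p = 0.376). Krt1 had 400 and 1048 CPM against 26.4 and 32.5 CPM and could not be tested without them. The cornified envelope genes Lor, Hrnr and Flg2 had 89.8%, 100% and 84.3% of their control counts in the same cells. Calm4, a calmodulin-like protein, had 57.1% of its control counts there and kept its call, at -1.62 ± 0.19 with (edgeR, adjusted p = 4.1e-05) and -1.16 without the marker-rich cells (adjusted p = 0.0049). Sbsn, a further member of the list, had 2213 and 1937 CPM against 2148 and 1839 CPM and was not called (edgeR, adjusted p = 0.925). With the marker-rich cells left out, 8 of the genes were tested, 1 fell, and the median was -0.13. The list summed to 14996 and 16820 CPM in control members and 5959 and 4952 CPM in CerS4epi-/- members, and to 52981 and 58926 against 47638 and 44911 CPM in all other cells.

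The fallen genes of largest fold were mostly of the same kind. Ifitm6 (149 and 139 CPM in controls), Ptgs1 (103 and 82.6 CPM), Ndufa4l2 (72.4 and 82.6 CPM) and Igfbp3 (53.3 and 98.1 CPM) were at 0 in both CerS4epi-/- sums, at least 17.9-fold, 11.6-fold, 9.66-fold and 9.43-fold lower against a floor of 3 counts over the group. Between 60.6% (Igfbp3) and 95.5% (Ifitm6) of their control counts were in the 13 cells. Wfdc21 fell from 267 counts over the 2 control sums to 3, a ratio of 72.9 with a counting interval of 24.7 to 356, and 98.5% of the control counts were in the 13 cells. Skint9 and Skint10, keratinocyte relatives of the ligand that selects epidermal γδ T cells, fell from 63 to 2 and from 49 to 1 counts, with 93.7% and 93.9% in the 13 cells. Gm94 fell from 305 and 243 CPM to 5.28 and 16.3 CPM, with 96.9% of its control counts there. None of these except Ly6a, the tenth gene of that rank, could be tested without the marker-rich cells.

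Upper hair follicle genes rose, and for 5 of the 6 risen genes most CerS4epi-/- counts lay in the 7 Krt79-rich cells. Of 16 listed genes 11 were tested, 6 rose and 0 fell, with a median log2 fold change of 1.81. Krt79, which chose those cells, had 53.3 and 67.1 CPM against 639 and 271 CPM. Sprr1a, a cornified envelope precursor induced in stressed epidermis, had 308 and 31.0 CPM against 3157 and 4751 CPM (log2 fold change 4.45 ± 0.46, edgeR, adjusted p = 1.2e-05), and 91.9% of its CerS4epi-/- counts lay in the 7 cells. In control 1, 92.6% of its 81 counts were in 3 cells, and its log2 fold change was 6.95 without control 1 and 3.68 without control 2. Without the marker-rich cells it was 0.79 (edgeR, adjusted p = 0.582). Plet1, a surface marker of the follicle junction, had 137 and 77.5 CPM against 591 and 439 CPM, and 0.44 without them (edgeR, adjusted p = 0.613). Cst6, a cystatin, had 1649 and 289 CPM against 5537 and 6991 CPM. Its log2 fold change was 2.68 over all members, 4.41 without control 1, 1.93 without control 2 and 1.66 without the marker-rich cells (edgeR, adjusted p = 0.055). The kallikreins Klk7 and Klk10, serine proteases of the shedding epidermis, were also called without the marker-rich cells. Klk7 had 251 and 320 CPM against 1330 and 651 CPM, and Klk10 362 and 10.3 CPM against 850 and 1627 CPM. Over all members their log2 fold changes were 1.81 and 2.63, and without the marker-rich cells 4.01 and 2.25 (edgeR, adjusted p = 6.32e-06 and 0.00849). Of the 128 control counts of Klk7, 90.6% lay in the Krt1 and Krt10-rich cells, so its larger fold without them comes with few control counts. Klk7 was called in 15 of 18 other fits and Klk10 in 12 of 18. The control counts of Klk10 were 95 and 2, and its log2 fold change was 6.80 without control 1 and 1.78 without control 2. Klk10 was not called by DESeq2 (adjusted p = 0.998), and the replicate block gave it an edgeR adjusted p of 0.058. Krt80, a further member of the list, had 1599 and 1926 CPM against 1467 and 1562 CPM and was not called (edgeR, adjusted p = 0.628). The list summed to 4916 and 3512 CPM in control members and 14431 and 17030 CPM in CerS4epi-/- members, and to 7060 and 6143 against 12392 and 15620 CPM in all other cells.

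**Figure D5:**
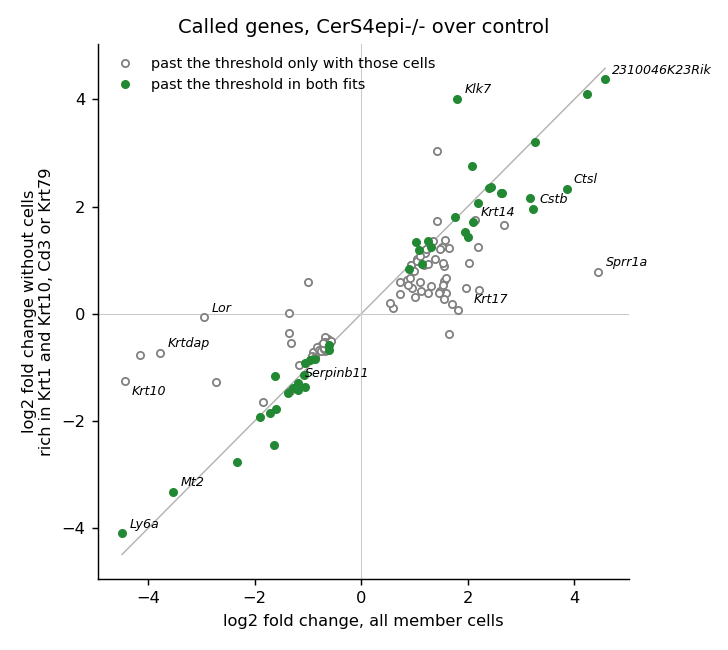
Log2 fold changes, CerS4epi-/- over control, of called genes over all members (x axis) and without the cells rich in Krt1 and Krt10, Cd3 or Krt79 (y axis), for the genes tested in both fits. Filled points passed the threshold in both; Krt10, Krtdap and Lor and, among the risen genes, Sprr1a and Krt17 are open points off the diagonal, while Mt2, Ly6a and 2310046K23Rik lie near it.

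The risen genes of largest fold were partly of this kind. Klk6 (248 and 75.9 CPM in CerS4epi-/- members) and Prss22 (95.01 and 119 CPM), both serine proteases, were at 0 in both control sums, at least 24.6-fold and 16.3-fold higher against a floor of 3 counts over the group. In the Krt79-rich cells lay 93.4% of the Klk6 and 52.5% of the Prss22 counts. Cald1, an actin-binding protein, rose from 38.1 and 10.3 CPM to 813 and 423 CPM, with 83.4% of its counts there, and Hbegf, an EGF receptor ligand, from 15.2 and 25.8 CPM to 248 and 157 CPM, with 88.2%. Spink12 rose from 1 to 39 counts (ratio 47.6, counting interval 8.05 to 1928), Chil1, a chitinase-like protein, from 2 to 35 counts (ratio 21.4, 5.49 to 183), and Pmepa1, a target and inhibitor of TGF-β signalling, from 3.81 and 20.7 CPM to 68.6 and 201 CPM. Chil1 had 0% of its CerS4epi-/- counts in Krt79-rich cells and kept its call without all marker-rich cells of both groups. It too rested on few cells, with a count in 3.64% and 0% of control members and 9.68% and 9.38% of CerS4epi-/- members. The counting intervals do not cover the spread between cells.

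Keratins and other genes of stress and wounding rose. Of 22 listed genes 5 were tested and all 5 rose, Krt6a, Krt16, Krt17, Sprr1a and Hbegf, and without the marker-rich cells 1 of 4, Krt16. Krt6a (chr15:101598345-101602742, minus strand), which both the inner bulge and wounded epidermis make, had 8130 and 5619 CPM in control members and 11924 and 13299 CPM in CerS4epi-/- members (log2 fold change 0.88 ± 0.16, edgeR, adjusted p = 0.00262). Without the marker-rich cells its log2 fold change was 0.53 (edgeR, adjusted p = 0.0909). Its median per cell was 29 and 17 counts in controls and 44 and 49 in CerS4epi-/- mice. Krt16, a keratin of activated keratinocytes, had 228 and 0 CPM against 1082 and 483 CPM, of which the 3 richest cells held 79.5% and 76.4%. Its 60 control counts were all in control 1, 90% of them in 3 cells, and its log2 fold change of 2.64 was 10.2 without control 1 and 1.77 without control 2. Krt16 was called in 14 of 18 other fits and not by DESeq2 (adjusted p = 0.998). Krt17, another, had 1481 and 1141 CPM against 5732 and 4583 CPM, with 68.7% of the CerS4epi-/- counts in Krt79-rich cells. In the list of inner bulge and companion layer genes, 10 were tested outside the rule, 3 rose (Krt6a, Krt16 and Krt17) and 2 fell (Serpinb11 and Gata3). Gata3, a transcription factor of the inner root sheath lineage, had 179 and 269 CPM against 106 and 65.1 CPM, and the difference was not called without the marker-rich cells (log2 -0.35, edgeR, adjusted p = 0.809).

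Genes of the actin cytoskeleton rose in part. Of 33 tested, 9 rose and 0 fell, with a median log2 fold change of 0.42. They were Actb, Actg1, Myh9, Tpm1, Tpm2, Tagln2, Cald1, Tmsb10 and Arpc1b. Tpm1, a tropomyosin, had 449 and 429 CPM against 1457 and 1134 CPM (log2 fold change 1.56 ± 0.20, edgeR, adjusted p = 0.000102), with 63.9% of the CerS4epi-/- counts in Krt79-rich cells. Actb had 3305 and 3140 CPM against 5152 and 4578 CPM, and the most abundant member, Tmsb4x, which binds actin monomers, 9482 and 9993 against 8826 and 8282 CPM without a call (edgeR, adjusted p = 0.532). Without the marker-rich cells 1 of 28 rose, Arpc1b, and the median was 0.06.

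Of 12 interfollicular basal genes 9 were tested, Krt14 rose, and Mt2, Ly6a and Ifitm3 fell. Over all genes tested, 2.8% rose and 2.53% fell. Of 10 tested outer bulge genes, Col17a1 fell and none rose, too few calls to set the list apart from those shares. Krt15, the most abundant of these and a keratin of the bulge, had 23138 and 21803 CPM against 19515 and 19997 CPM (edgeR, adjusted p = 0.456). Sox9, a transcription factor of bulge stem cells, had 1653 and 1549 CPM against 2550 and 2191 CPM, and did not pass (log2 0.57 ± 0.16, edgeR, adjusted p = 0.0561). Cxcl14, a chemokine and the third of them, had 526 and 485 CPM against 1008 and 439 CPM.

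In the BMP, FGF, Wnt and sphingolipid lists edgeR called 0 or 1 gene each, beside 2.8% risen and 2.53% fallen of all genes tested, and DESeq2 called 0. Of 13 BMP pathway genes tested, Bmp7, a ligand, rose and none fell, from 152 and 160 CPM to 290 and 277 CPM (log2 fold change 0.87 ± 0.24, edgeR, adjusted p = 0.0434). Without the marker-rich cells its log2 fold change was 0.64 and did not pass (edgeR, adjusted p = 0.276). The receptor Bmpr1a had 213 and 243 CPM against 269 and 217 CPM. Of 6 FGF pathway genes tested, Dusp6, a phosphatase that ERK signalling induces, rose from 80.0 and 72.3 CPM to 333 and 130 CPM. With the marker-rich cells left out Dusp6 was at 0.67 (edgeR, adjusted p = 0.513), and the receptor Fgfr3 passed in its place, at a log2 fold change of 1.21 (adjusted p = 0.0392), from 114 and 129 CPM to 185 and 217 CPM over all members. Of 15 Wnt pathway genes tested 0 were called by edgeR with or without these cells, among them Ctnnb1, with 1196 and 1322 CPM against 1415 and 1280 CPM, the receptor Fzd1 and the transcription factor Tcf7l2 (0 genes had an unadjusted p under 0.05). Of 19 sphingolipid genes tested, Elovl1, which elongates the fatty acids of ceramides, fell from 179 and 145 CPM to 47.5 and 59.7 CPM (edgeR, adjusted p = 0.0101), with 70.7% of its control counts in the 13 Krt1 and Krt10-rich cells. Without these and the Cd3-rich cell Elovl1 was at -0.28 (edgeR, adjusted p = 0.843), and of 18 sphingolipid genes then tested 0 fell and 1 rose. That one was Elovl4, which makes very long-chain fatty acids for epidermal ceramides, at a log2 fold change of 2.95 (edgeR, adjusted p = 0.00561), against -0.87 over all members (adjusted p = 0.191). Without all marker-rich cells Elovl4 could not be tested, and of 14 sphingolipid genes tested 0 rose and 0 fell. Psap, the precursor of the saposins that help break sphingolipids down, had 343 and 341 CPM against 428 and 499 CPM, and Degs1, which makes the double bond of ceramide, 137 and 196 CPM against 158 and 157 CPM.

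The counts of the next lists stand beside 2.8% risen and 2.53% fallen of all genes tested. Lists of only a few genes with 0 called cannot be told apart from these shares. Of 21 immediate early and dissociation genes tested, Egr2 and Ier3 rose and Atf3, Nr4a1 and Hsp90aa1 fell. Without the marker-rich cells 0 of 19 rose and the same 3 fell. Fos, the most abundant, had 1824 and 1518 CPM against 2101 and 786 CPM and was not called (edgeR, adjusted p = 0.812). Ribosomal protein genes were 81 of the 3361 genes of the fit, 16 of the 85 fallen genes and 0 of the 94 risen ones. Their median log2 fold change was -0.54. Of 4 interferon response genes tested (B2m, H2-D1 and H2-K1 the most abundant), 4 cell cycle genes (Cdkn1a, Cdkn1b and Pcna), 3 sebaceous gland genes (Fabp5, Scd1 and Mgst1), 2 Langerhans cell genes (Epcam and Mfge8), 1 inner root sheath gene (Cux1) and 1 melanocyte gene (Mitf), 0 were called by edgeR or by DESeq2, and 1 gene of the interferon response list and 2 genes of the Langerhans cell list had an unadjusted p under 0.05. B2m, the light chain of MHC class I, had 811 and 547 CPM against 850 and 846 CPM, and passed without the cells rich in Krt1 and Krt10 or Cd3 (log2 0.86, edgeR, adjusted p = 0.0226) but not without all marker-rich cells (log2 0.15, adjusted p = 0.897). Fabp5, a fatty acid binding protein, had 228 and 114 CPM against 185 and 331 CPM, overlapping over all members, and passed without the marker-rich cells (log2 2.31, edgeR, adjusted p = 0.00123). Of 18 matrix and adhesion genes tested, Col17a1 fell and none rose, with Perp and Dsp, both of desmosomes, at 8625 and 8464 against 8805 and 9085 CPM, and at 3667 and 3553 against 4249 and 4073 CPM. The T cell list summed to 217 CPM in control 1 and 0 in the other 3 sums, with all Cd3g counts in 1 cell, and no T cell or endothelial gene was high enough to be tested.

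The genotype difference in members was then set against that in Lhx2-positive bulge cells of the same mice, by the interaction of class and genotype. It differed for 163 of 4909 genes, or 3.32% (edgeR, adjusted p under 0.05), 97 of them shifted upwards in members and 66 downwards. Serpinb11 was lower in CerS4epi-/- mice in both classes and by more in Lhx2-positive cells, at 395 and 400 CPM against 27.8 and 12.9 CPM, so that the difference of the differences was 3.01 ± 0.30 on the log2 scale (edgeR interaction, adjusted p = 2.52e-05). The difference was also smaller in members than in Lhx2-positive cells for Wfdc3 and Bmp2, by 1.57 ± 0.35 and 2.60 ± 0.49 on the log2 scale (edgeR interaction, adjusted p = 0.0177 and 0.00589). In Lhx2-positive cells Wfdc3 had 39 and 23 counts in controls and 20 and 19 in CerS4epi-/- mice. Bmp2 had 39 and 10 against 15 and 2 there. Serpinb11 had 25 and 8 counts in the CerS4epi-/- Lhx2-positive cells, with 96% and 75% in the 3 richest cells. It had a count in 40% and 38.2% of control and 2.99% and 4.90% of CerS4epi-/- Lhx2-positive cells. As given above, the Lhx2-positive class differed in make-up between the genotypes. In CerS4epi-/- mice it held less Krt10 and Klk10 and more Krt14, Krt79 and Klk7, and the part of this in the interactions was not tested. Cryab, a small heat shock protein, Cdsn, the corneodesmosome protein, and Anxa1, an annexin, were lower in CerS4epi-/- mice in Lhx2-positive cells and were not called in members. Cryab had 682 and 522 CPM against 723 and 906 CPM in members, and 698 and 439 CPM against 60.1 and 71.2 CPM in Lhx2-positive cells (interaction 3.48 ± 0.26, edgeR, adjusted p = 8.09e-07). Anxa1 had 956 and 707 CPM against 924 and 873 CPM in members, and 4083 and 3819 CPM against 565 and 662 CPM in Lhx2-positive cells. Cdsn had 3431 and 3548 CPM against 3801 and 4518 CPM in members, and 5578 and 6322 CPM against 1104 and 1136 CPM. Krt1 moved the other way, with an interaction of -5.03 ± 0.36 (edgeR, adjusted p = 8.09e-07), which was -1.97 without the marker-rich cells (adjusted p = 0.038).

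The changes of Mt2, Txnip, Crabp2 and Sparc in members departed from those in Lhx2-positive cells. Mt2 had 410 and 515 CPM against 403 and 220 CPM in Lhx2-positive cells, and the interaction was -3.00 ± 0.44 (edgeR, adjusted p = 0.000729). Txnip had 273 and 319 CPM against 390 and 382 CPM there, with an interaction of -1.82 ± 0.24 (adjusted p = 0.000259). Crabp2 had 860 and 592 CPM against 616 and 553 CPM there (interaction 2.29 ± 0.26, adjusted p = 7.47e-05), and Sparc 74.9 and 46.8 CPM against 60.1 and 71.2 CPM (2.30 ± 0.45, adjusted p = 0.00726). For Krt14 and Krt6a the interaction with Lhx2-positive cells did not pass (edgeR, adjusted p = 0.173 and 0.942). Krt14 had 893 and 966 CPM against 5804 and 7590 CPM in Lhx2-positive cells, and Krt6a had 2759 and 2623 CPM against 3213 and 6420 CPM there.

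Set against all other kept cells, the genotype difference differed for 174 of 14529 genes, or 1.2% (edgeR interaction, adjusted p under 0.05), 41 upwards and 133 downwards in members. Without control 1 or without control 2, 0 genes were called by edgeR, with 615 and 598 genes at an unadjusted p under 0.05. By smallest p the first 5 were Txnip, Wfdc21, Krt10, 2310046K23Rik and Krt1, and all 5 had the same direction without control 1 and without control 2. Txnip had 285 and 280 CPM against 380 and 568 CPM in all other cells, where it was higher in both CerS4epi-/- mice, and the interaction was -2.17 ± 0.18 (edgeR, adjusted p = 9.74e-28), -2.27 without control 1 (adjusted p = 0.351) and -1.97 without control 2 (adjusted p = 0.301). Serpinb11, at 6.69 and 4.86 CPM against 2.83 and 2.47 CPM in other cells, was not called in this interaction (edgeR, adjusted p = 1). Krt6a, at 44.1 and 28.7 CPM against 283 and 679 CPM in other cells, had a larger fold there than in members, with an interaction of -2.79 ± 0.28 (edgeR, adjusted p = 3.7e-20). Krt14, at 1999 and 1751 CPM against 2799 and 2571 CPM in other cells, had the larger fold in members (interaction 1.498 ± 0.267, edgeR, adjusted p = 7.21e-06).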

How the data were processed

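Single-cell RNA of 4 mice was analysed. The deposited matrices give, for each gene in each barcode, the estimated counts that the authors made with fastp 0.23.2 and STAR 2.7.10a on GRCm39 (Gencode annotation, multimapping reads shared by expectation maximization), without a filter on cells; 4.55% to 4.81% of entries are not whole, so the values were rounded. Kept barcodes had 1200 counts or more, no more than 20% of them mitochondrial. Counts of members were summed per mouse and tested with edgeR 4.0.16 (TMM factors, filterByExpr, quasi-likelihood test, Benjamini-Hochberg); SEs come from the fold change and F statistic. Interactions had the mouse as a block. CPM are scaled to the total counts of the summed class. DESeq2 1.42.0 and other thresholds served as alternatives. The method was tested on simulated data.

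The members and the gene lists were chosen with earlier results of these data known. Genes named are the label markers and Cers4, the 10 called genes of largest fold per direction, called and the 3 most abundant members of each list, the 5 of smallest p per interaction and the 15 of highest ratio over other cells. The genes called in every fit were chosen after their values were seen. Promoter windows are from RefSeq on GRCm38.p6, placed on GRCm39 by exact matches, and gene coordinates from GENCODE on GRCm39.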

Additional observations from a re-analysis of the deposited data

Results flagged for a closer look

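In 10 cases the genotype difference in Krt75-positive inner bulge cells departed from that in another class of cells by the edgeR interaction test. Against Lhx2-positive bulge cells the difference of log2 fold changes was -5.03 for Krt1, 3.48 for Cryab, 2.60 for Cdsn, 2.76 for Anxa1 and 3.01 for Serpinb11. Against all other kept cells it was -2.17 for Txnip, -6.00 for Wfdc21, -3.94 for Krt10, 4.29 for 2310046K23Rik and -4.62 for Krt1. When 1 mouse was left out, it ran from -16.3 to -4.87 for Wfdc21 and from -4.50 to -3.43 for Krt10. It then ran from 3.30 to 5.24 for 2310046K23Rik and from -5.19 to -3.87 for Krt1. Among the genes shifted upwards against Lhx2-positive cells, Cryab, Cdsn and Anxa1 had log2 fold changes of -3.11, -2.38 and -2.66 there and were not called in members. The values of Krt1, Krt10 and Wfdc21 move with the 13 control members rich in Krt1 and Krt10. With those and the other cells rich in Krt79 or Cd3 left out, 161 genes differed against Lhx2-positive cells and 96 against all other cells. With 2 mice per group no sample could be tested for standing apart from its group.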

How the results depend on the processing

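The share of members was lower in CerS4epi-/- mice under every alternative run, at log2 ratios from -0.94 (thinned) to -0.29 (at least 2000 counts), and from -0.76 to -0.43 when 1 mouse was left out. Genes called between genotypes in members numbered 179. They fell to 69 with DESeq2, 49 with random pseudoreplicates in DESeq2, 74 with summed rule genes of at least 6 and 62 without the 10% deepest members, and rose to 283 without a filter on low counts. After the single cells had been seen, members with Serpinb11 or Wfdc3 gave 85, and leaving out members rich in Krt1 and Krt10, Cd3 or Krt79 gave 50. Leaving out 1 mouse gave 139 to 223. With the replicate number as a block, 162 genes were called. The numbers do not pair the mice by the labels, and the deviations of same-numbered mice correlated at 0.0363 (crossed, -0.0363). The 163 interactions with Lhx2-positive cells were 46 with DESeq2 and 148 to 221 without 1 mouse. The 174 interactions with all other cells were 96 with DESeq2, 96 without the marker-rich cells and 0 to 176 without 1 mouse. Lor and Elovl1 reversed to 0.083 and 0.018 without the 10% deepest members, and Elovl4 from -0.87 to 2.95 without members rich in Krt1 and Krt10 or Cd3. The cause of these changes was not tested, apart from the cells or genes each alternative removes. Of the values of single named genes and interactions under alternatives, 1596 kept direction and side of the threshold, 61 changed sign with no call in either fit, 178 lost their call and 25 gained one in the same direction. Between 31 and 55 cells per mouse limit what low genes can show. In edgeR with DESeq2 size factors 182 genes were called, 94 of them higher.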
